A study of Mus musculus with 30 samples.

Results

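Cholesterol genes were followed across 30 bulk RNA libraries of a mouse fibroblast line in which single transcription factors had been raised. The set holds 27 genes out of 36047 with summed counts, listed by name and by their place in the sterol pathway. The rule uses no measured value, but the list was drawn up with earlier results of these data known. It comprises 8 enzymes of the mevalonate arm, 3 of squalene synthesis and ring closure, 8 that turn lanosterol into cholesterol, 6 genes of uptake, transport and the lysosome, and 2 of ester storage. Cells build cholesterol from acetyl-CoA through mevalonate, isoprenoid diphosphates, squalene and lanosterol. When sterols in the endoplasmic reticulum run low, the factor encoded by Srebf2 is released from the membrane by Scap and the site proteases and switches these enzymes on together, while Insig proteins hold it back when sterols are plentiful. Fibroblasts also take up lipoprotein cholesterol, free it in the lysosome and store the excess as esters.

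The cells were NIH3T3-CG, labelled as embryonic fibroblasts of the NIH3T3 line. The labels do not explain the suffix. All 10 groups had 3 replicates. In the transfection experiments, cells received a plasmid for Prrx1 or Snai1 (with 1 shared set of control-plasmid cells), for Egr1 or Jun (with another shared set), or for Srebf2 (with its own control-plasmid cells). The remaining libraries came from cells transduced with Prrx1 and kept with or without doxycycline. The labels give no promoter, no dose or time and no clone, and they list no doxycycline-treated cells without the Prrx1 construct, so an effect of the drug and one of induced Prrx1 cannot be told apart. The labels do not say where the replicates came from. The p-values therefore cover spread among these libraries alone, and that spread may be technical. In bulk RNA, fewer cells with a transcript and less transcript per cell cannot be told apart.

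Promoter letters are shown first, because sterol control of these enzymes acts through elements near the start site. The sequence below is that of Hmgcs1, which makes HMG-CoA, the precursor of mevalonate. It was the 1 member called with the Srebf2 plasmid whose RefSeq promoter window held the sterol regulatory element TCACNCCAC (SRE). It covers the 250 bases before the start at chr13:119690101-119690350, plus strand, RefSeq on GRCm38.p6. Capitals mark the SRE letters, 137 bases before the start, and the 3 places that read CCAAT on the other strand.
Hmgcs1: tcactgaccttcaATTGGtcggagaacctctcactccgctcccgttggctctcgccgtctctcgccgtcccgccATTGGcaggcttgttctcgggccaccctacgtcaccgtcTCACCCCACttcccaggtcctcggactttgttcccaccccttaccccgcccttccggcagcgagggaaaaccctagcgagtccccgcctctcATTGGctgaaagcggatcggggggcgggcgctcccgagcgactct

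Windows of 250 bases before to 50 bases after the start were found in the RefSeq table for 21 of the 27 members (24 windows). Fdps, Fdft1, Sqle, Stard4, Npc1 and Scarb1 had none there. On either strand, TCACNCCAC was in 1 of the 21 genes (4.76%), against 1.44% of 27025 genes and 1.24% of 32851 windows in the table. CCAAT, the letters bound by NF-Y, was in 20 of 21 (95.2%), against 41.1% of genes and 37.4% of windows. Acat2 was the gene without it. GGGCGG, the GC box bound by Sp1, was in 18 (85.7%), against 38.2% of genes and 35.7% of windows. CACGTG, the E-box, was in Hsd17b7, Sc5d, Dhcr7 and Nceh1 (19%), against 8.09% of genes and 7.15% of windows. Matches were allowed to overlap one another. A match is a description of the letters and no evidence of binding.

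Total estimated counts per library ran from 7996355 to 37068611. All 27 members passed the filter on low counts in every fit. Each delivered factor was higher in all 3 of its libraries than in its controls, from 3.85-fold for induced Prrx1 to 123-fold for Snai1. Fibroblast markers (9 genes, Col1a1 and Vim among them) summed to between 15700 and 29600 CPM (counts scaled to library size) in every library. The other marker lists were low, with exceptions in single libraries. Egr1 plasmid replicate 3 held Krt18 at 104 CPM and epithelial markers summing to 163 CPM, and control replicate 2 of the Egr1 and Jun experiment had Map2 at 53.6 and Ttr at 33.6 CPM. Endothelial markers summed to 14.4 to 21.5 CPM in the transduced libraries and at most 5.66 CPM elsewhere. Adipocyte markers, of a lipid-storing cell, reached at most 9.62 CPM, with Adipoq at or below 0.108.

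Levels between genes were compared in TPM, which corrects for transcript length, and are descriptions. Among the 3 groups with control plasmid, Fdps, which makes farnesyl diphosphate, was the most abundant member, at 743 to 991 TPM by group mean. Acat2, which joins acetyl-CoA units at the head of the pathway, followed at 382 to 513 TPM. Cyp51, the lanosterol demethylase, stood at 232 to 318 TPM, Sqle, the squalene epoxidase, at 230.0 to 306 TPM, and Msmo1, the sterol methyl oxidase, at 272 to 329 TPM. These last 3 genes lay so close that their order changed from group to group. At the low end stood Ggps1, which makes geranylgeranyl diphosphate on a side branch (12 to 12.2 TPM), Dhcr7, the last reductase (17.4 to 24.4 TPM), Nceh1, a cholesterol ester hydrolase (14.5 to 38.7 TPM), and Npc1, which moves cholesterol out of the lysosome (21 to 32.2 TPM).

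**Figure D1:**
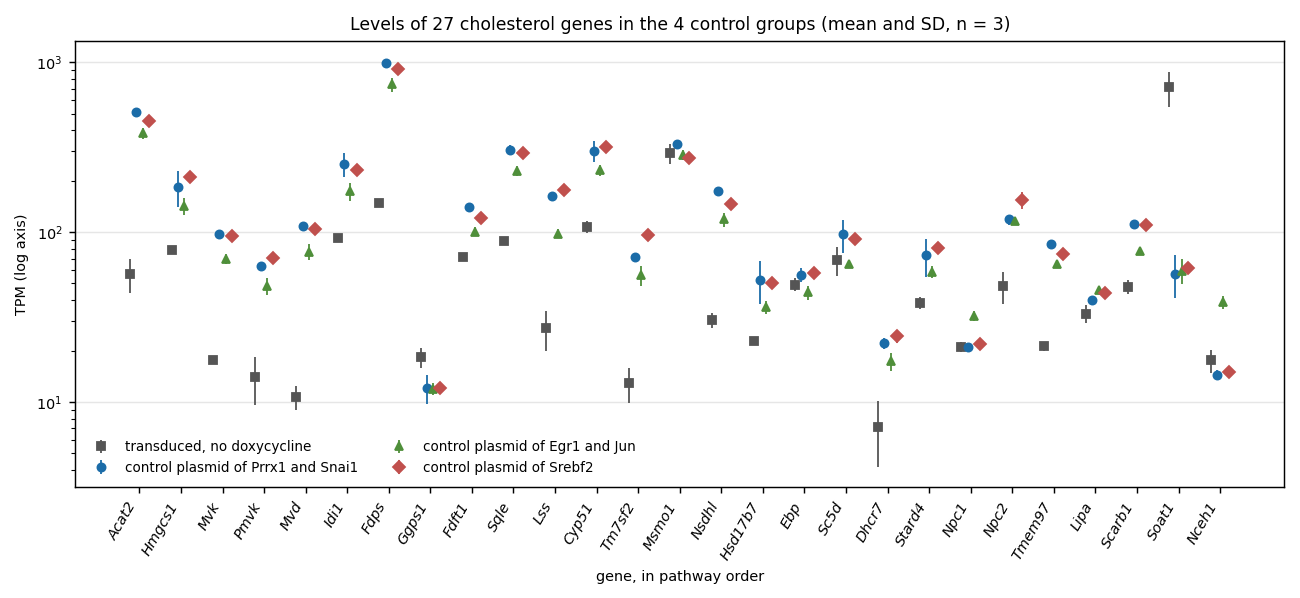
Mean TPM (log axis) with SD over 3 libraries for the 27 members in pathway order, in uninduced transduced cells (grey squares) and the 3 groups with control plasmid. Grey squares lie far under the other symbols for Acat2 (57 against 382 to 513 TPM), and far above them for Soat1 (712 against 57.2 to 61.4 TPM).

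Uninduced transduced cells carried less of most members than any cells with control plasmid. On the CPM scale, 23 of 27 members were lower in all 3 uninduced libraries than in all 9 libraries with control plasmid, 2 were higher (Ggps1 and Soat1) and 2 overlapped (Sc5d and Nceh1). Acat2 lay at 55.4 to 84.8 CPM against 546 to 813 CPM, and Mvd, the mevalonate diphosphate decarboxylase, at 10.04 to 12.6 against 82.9 to 139 CPM. Soat1, which esterifies cholesterol, lay at 263 to 324 CPM in uninduced cells against 101 to 129 CPM. These cells differ in delivery, experiment and sequencing, which cannot be told apart, so no test was made. The share of all genes that separate in this way was not counted, so the counts cannot show a trait of these members.

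Transcript models differed between these cell sets as well. In uninduced and induced transduced libraries, a 509-base model held 79.1% and 75.7% of the TPM of Soat1, against 0.3 to 3.9% in the plasmid groups. For Msmo1 an 816-base model held 59.5% and 63.5%, against 2.0 to 7.0%. For Ebp, the sterol isomerase, a 1034-base model held 77.5% and 77.8%, against 1.8 to 6.8%. Because TPM divides by length, the TPM of these 3 genes in transduced libraries rests on short models. Changes below against a group's own control were tested on gene counts within 1 experiment. Differences between effects and the fit of all 30 libraries span experiments, and limma used TPM.

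The Srebf2 comparison asks what the sterol genes do when their own activator is raised. Srebf2 (chromosome 15, 82147181 to 82205379, plus strand) was at 593, 619.6 and 621 CPM in the control libraries and at 2542, 2412 and 2729 CPM with its plasmid, a 4.19-fold rise (log2 fold change 2.07 ± 0.0583 (SE), adjusted p = 5.63e-14, edgeR's quasi-likelihood test with Benjamini-Hochberg adjustment). Of the 27 members, 6 rose (Hmgcs1, Idi1, Msmo1, Nsdhl, Dhcr7 and Lipa) and 3 fell (Pmvk, Mvd and Tm7sf2). Among all 12728 genes tested, 8.4% were called higher and 8.84% lower, which are the shares against which 6 and 3 of 27 are to be read. The median member change was 0.09 on the log2 scale, against 0 over all genes.

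In the mevalonate arm 2 enzymes were called higher and 2 lower as fitted. With the GC correction described below, 0 were called higher and 1 lower. Hmgcs1 (chromosome 13, 119690379 to 119708260, plus strand), whose promoter letters are printed above, was at 462, 477 and 480.0 CPM in controls and at 521, 560 and 557 CPM with Srebf2. Its groups did not overlap, and it rose (0.21 ± 0.0494, edgeR adjusted p = 0.00859). Of its 31-base words, 86.9% are found in no other gene, so a share of its reads is uncertain. Idi1 (chromosome 13, 8885501 to 8892451, plus strand), which isomerises isopentenyl diphosphate, was at 419, 452 and 467 CPM in controls and at 485, 539 and 583 CPM with Srebf2. All 3 treated libraries were above the controls, and the rise was 1.2-fold (0.26 ± 0.0635, edgeR adjusted p = 0.00981), with 72.9% of its words unique to it.

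The kinase and the decarboxylase between these 2 enzymes fell. Pmvk (chromosome 3, 89454541 to 89469013, plus strand), the phosphomevalonate kinase, was at 50.3, 55.3 and 48.4 CPM in controls and at 39.4, 38.2 and 35.05 CPM with Srebf2. Its log2 fold change of -0.45 ± 0.0703 (edgeR adjusted p = 0.000486) was the largest of any member here, and its groups were well apart. Mvd (chromosome 8, 122433601 to 122443422, minus strand) was at 120.0, 125 and 119 CPM in controls and at 110.4, 106 and 99.7 CPM with Srebf2 (-0.20 ± 0.0555, edgeR adjusted p = 0.0189), again without overlap. Acat2, Mvk, the mevalonate kinase, Fdps and Ggps1 did not pass the test, with log2 fold changes of -0.02, -0.08, 0.07 and 0.15. Acat2 shares 43.7% of its words with Acat3, and Fdps and Ggps1 have 72.1% and 85.1% unique words.

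Neither squalene synthesis nor ring closure passed the test. Fdft1, the squalene synthase, had a log2 fold change of 0.10, Sqle of 0.09 and Lss, the lanosterol synthase, of 0.00, with edgeR adjusted p between 0.18 and 0.974. Reads of Fdft1 can come from Ctsb on the opposite strand, since 18.3% of its exon bases overlap that gene, strand is not given in the sources used here and 68.1% of its words are unique.

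Among the enzymes from lanosterol to cholesterol, 3 rose and 1 fell. Msmo1 (chromosome 8, 64718139 to 64733792, minus strand) was at 339, 327 and 356 CPM in controls and at 378, 407 and 438 CPM with Srebf2 (0.26 ± 0.0562, edgeR adjusted p = 0.00458). Dhcr7 (chromosome 7, 143823145 to 143848410, plus strand) was at 36.8, 35.4 and 37.9 CPM in controls and at 42.3, 40.9 and 43.95 CPM with Srebf2 (0.21 ± 0.0653, edgeR adjusted p = 0.0362). Nsdhl (X chromosome, 72918557 to 72958514, plus strand), which acts with Msmo1 in removing methyl groups from the sterol ring, rose from 215 ± 4.07 to 239.6 ± 13.4 CPM (SD, n = 3; 0.16 ± 0.0511, edgeR adjusted p = 0.0414). In none of these 3 genes did the groups overlap.

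The gene of this stretch that fell was Tm7sf2 (chromosome 19, 6062821 to 6068373, minus strand), a sterol reductase that acts after Cyp51. It was at 73.8, 78.6 and 78.7 CPM in controls and at 61.01, 57.05 and 60.7 CPM with Srebf2 (-0.37 ± 0.0573, edgeR adjusted p = 0.000461). The 2 groups were far apart, but only 86.7% of its words are unique, most of the rest being shared with Vps51, whose exons it overlaps on the same strand. Sc5d, the sterol desaturase, had the largest change not called, at 119, 138 and 139 CPM in controls and 136, 148 and 161 CPM with Srebf2. Its groups overlapped (0.17 ± 0.0705, edgeR adjusted p = 0.116). Cyp51, Hsd17b7, the sterol ketone reductase, and Ebp stood at 0.12, 0.14 and -0.09.

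Of the 8 genes of uptake, transport and storage, 1 passed. Lipa (chromosome 19, 34492318 to 34527474, minus strand), the lysosomal lipase that frees cholesterol from lipoprotein esters, was at 88.6, 96.1 and 90.6 CPM in controls and at 97.9, 102 and 117 CPM with Srebf2 (0.20 ± 0.0646, edgeR adjusted p = 0.038). Its lowest treated value was just above its highest control. The others had log2 fold changes of 0.09 for Stard4, a sterol carrier, -0.04 for Npc1, -0.09 for Npc2, its partner in the lysosome, 0.00 for Tmem97, a sterol-regulated membrane protein with 74.4% unique words, -0.03 for Scarb1, a lipoprotein receptor, 0.10 for Soat1 and -0.01 for Nceh1.

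**Figure D2:**
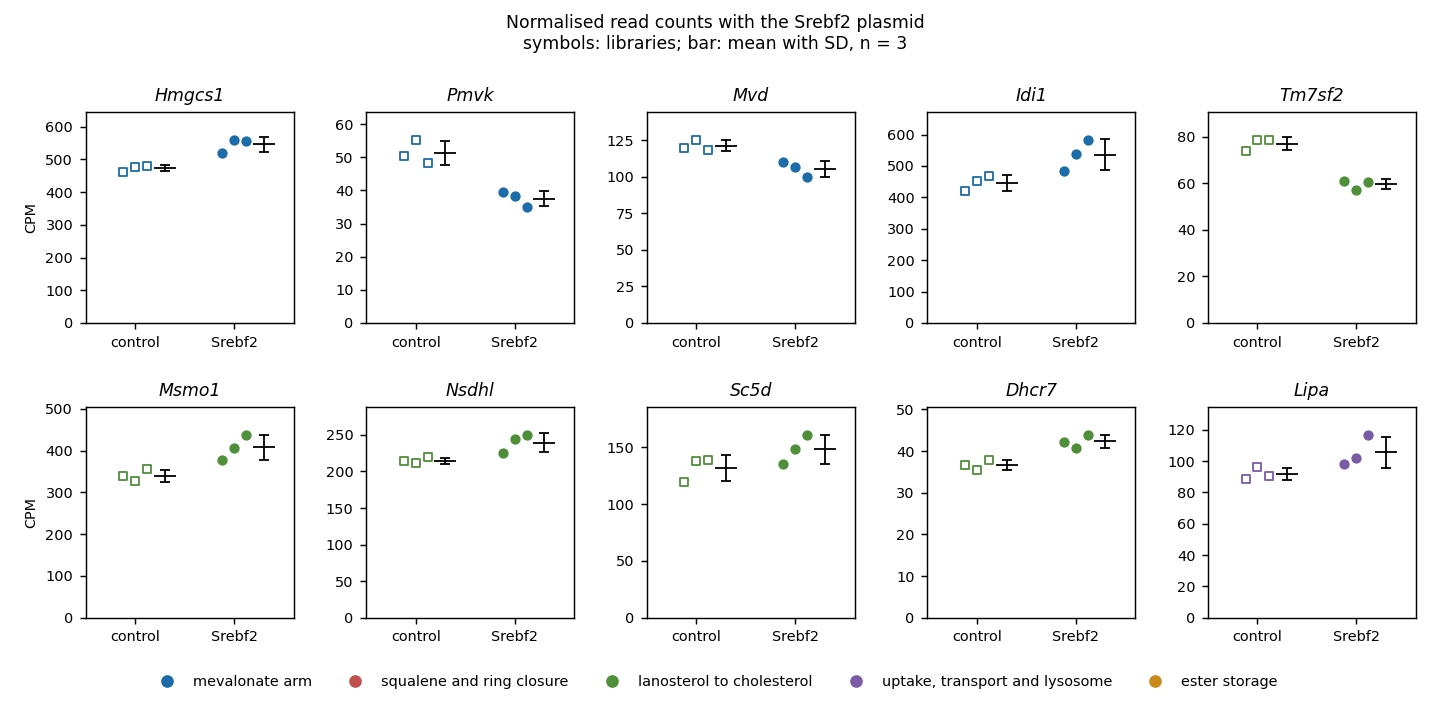
CPM in each library for the 9 members called in the Srebf2 comparison and for Sc5d, with control plasmid (open squares) and Srebf2 plasmid (filled circles). Bars give the mean and SD of 3 libraries, and only Sc5d shows overlapping groups.

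The changes with Srebf2 followed the GC content of the transcripts. Across the 27 members, Spearman's rho between the log2 fold change and the GC content of the main transcript was -0.71, and across 12715 tested genes of every kind it was -0.47. These genes share libraries, so no p is given. The main transcript is the model with the highest mean TPM over all 30 libraries. For Soat1 that is the 509-base model, which is scarce in the plasmid groups, so its GC value is uncertain here. The risers Idi1, Hmgcs1, Msmo1, Lipa and Nsdhl have 41.9 to 45.8% GC, and the fallers Tm7sf2, Pmvk and Mvd 56.4 to 59.3%. Dhcr7, at 53.1%, rose against that order. A GC correction of the fit, added after the data were seen, left 2 members higher (Msmo1 at 0.17 and Dhcr7 at 0.25) and 2 lower (Pmvk at -0.34 and Tm7sf2 at -0.27). It called 4.09% of all genes higher and 4.72% lower. The corrected values of Hmgcs1, Idi1, Nsdhl, Lipa and Mvd were 0.10, 0.14, 0.06, 0.11 and -0.07, with edgeR adjusted p from 0.109 to 0.419. Mitochondrially encoded transcripts also moved with the group, at 3.65 to 3.96% of counts with Srebf2 against 2.94 to 3.25% in controls, as did the added reporter sequences GFP and mScarlet, at 0.066 to 0.076% against 0.875 to 1.014%. Their part in the result was not tested.

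**Figure D3:**
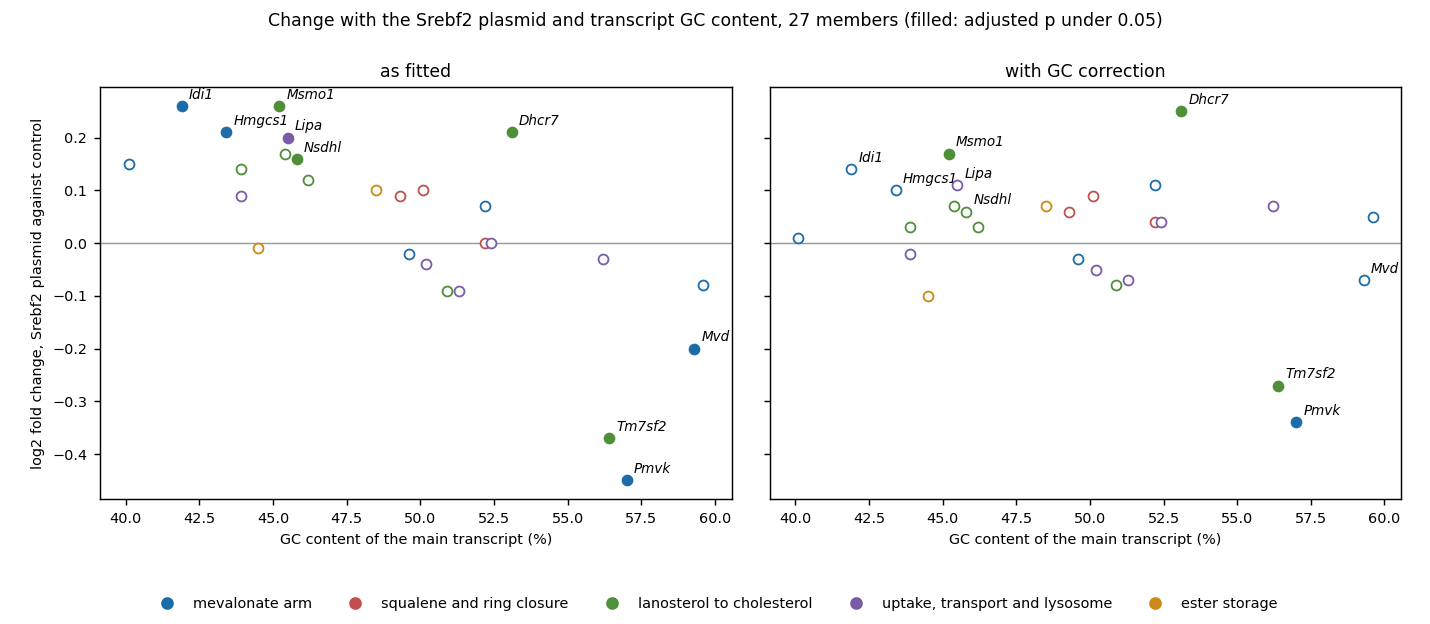
Log2 fold change with the Srebf2 plasmid against the GC content of each member's main transcript, as fitted (left) and with the GC correction (right). Filled points passed an adjusted p of 0.05, which 9 members did as fitted and 4 with the correction (Msmo1, Dhcr7, Pmvk and Tm7sf2).

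Pmvk, Idi1, Tm7sf2 and Msmo1 stayed called whichever library was omitted. Of the 6 fits with a library left out, Hmgcs1 was kept in 5, Mvd in 3, Nsdhl and Lipa in 1 each, and Dhcr7 in 0. Dhcr7, which passed with the GC correction, was also not called by DESeq2 (adjusted p = 0.0625). The count of members that rose went from 6 to 3 without control replicate 1, control replicate 2 or Srebf2 replicate 3, and to 2 without Srebf2 replicate 2. In a fit of all 30 libraries, which shares 1 estimate of the spread, no member was called higher and 1 was lower.

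The doxycycline comparison had the most members called higher in the edgeR fits, at 8. Prrx1, a homeobox factor of mesenchyme, was at 908, 914 and 1035 CPM without doxycycline and at 3392, 3509 and 3866 CPM with it. With doxycycline, 8 of 27 members rose and none fell. They were Hmgcs1, Idi1, Fdft1, Sqle, Cyp51, Msmo1, Ebp and Nceh1. Over all 13632 genes tested, 3.46% were higher and 2.74% lower. The unadjusted p was under 0.05 for 12 members above control and for 0 below, and DESeq2 called 9 higher and 0 lower. The share of all genes under either of these rules was not counted. Of the 19 synthesis enzymes, 18 had a positive log2 fold change, with a median of 0.34, and the 8 genes of uptake, transport and storage had a median of -0.08. The median over all genes was -0.01.

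Ebp (X chromosome, 8185329 to 8193512, minus strand) had the largest change called. It was at 37.2, 29.1 and 34.2 CPM without doxycycline and at 48.05, 56.1 and 56.7 CPM with it, 1.63-fold higher (0.71 ± 0.119, edgeR adjusted p = 0.00441). Nceh1 (chromosome 3, 27182965 to 27284608, plus strand) was at 47.1, 45.4 and 52.7 CPM without and 63.7, 67.7 and 71.5 CPM with doxycycline (0.52 ± 0.0985, edgeR adjusted p = 0.00958). In both genes every induced library lay above every uninduced one. Sqle (chromosome 15, 59315077 to 59331192, plus strand) was at 168, 147 and 146 CPM without and 218, 205 and 219 CPM with doxycycline (0.51 ± 0.0802, edgeR adjusted p = 0.00278). Msmo1 was at 221, 182 and 240.5 CPM without and 302, 293 and 292 CPM with doxycycline (0.49 ± 0.0988, edgeR adjusted p = 0.0125), the uninduced libraries being much the more scattered.

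The other called members rose by 1.27 to 1.38-fold without overlap of the groups. Hmgcs1 went from 155.0 ± 5.29 to 208 ± 0.262 CPM (SD, n = 3; 0.45 ± 0.0709, edgeR adjusted p = 0.00269). Cyp51 (chromosome 5, 4081145 to 4104746, minus strand) went from 267 ± 8.78 to 359 ± 19.9 CPM (0.46 ± 0.075, edgeR adjusted p = 0.00339). Idi1 (0.38, adjusted p = 0.0232) and Fdft1 (0.34, adjusted p = 0.042) were nearer the threshold in the same edgeR test. So was Lss, just outside it (0.43 ± 0.115, edgeR adjusted p = 0.0501).

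Dhcr7 had the largest change not called. It was at 6.44, 7.12 and 6.08 CPM without doxycycline and at 12.6, 11.3 and 7.68 CPM with it, so the third induced library lay just above the uninduced ones (0.72 ± 0.229, edgeR adjusted p = 0.101). The remaining synthesis enzymes did not pass. Acat2, Mvk, Pmvk, Mvd, Fdps and Ggps1 had log2 fold changes of 0.11 to 0.26, Tm7sf2 of 0.46, Nsdhl of 0.11, Hsd17b7 of 0.17 and Sc5d of 0.00. Neither did Stard4 (0.23), Npc1 (0.08), Npc2 (-0.17), Tmem97 (-0.30), Lipa (0.01), Scarb1 (-0.16) or Soat1 (-0.17), although both groups of Tmem97 and of Scarb1 were apart, with doxycycline lower.

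**Figure D4:**
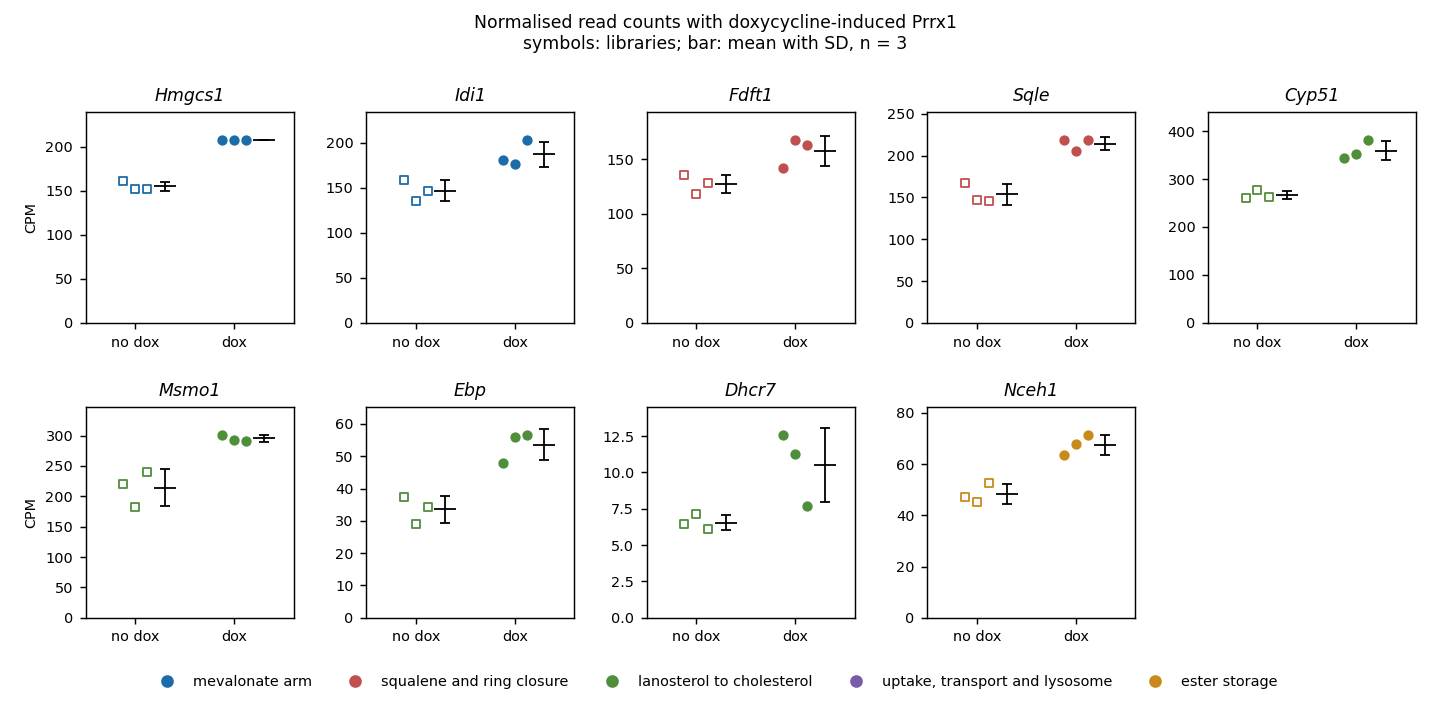
CPM in each library for the 8 members called with doxycycline-induced Prrx1 and for Dhcr7, without doxycycline (open squares) and with it (filled circles). Bars give the mean and SD of 3 libraries. Every induced library lies above the uninduced ones, and Dhcr7 shows the wide spread of its induced values, 7.68 to 12.6 CPM.

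Leaving out doxycycline replicate 2 or 3 took the count of members that rose from 8 to 4. Of the 8, limma on TPM called 2, Sqle and Ebp. Shares of all genes are not given for these fits. Hmgcs1, Sqle, Cyp51 and Ebp stayed called with any library omitted. The median coefficient of variation (SD over mean) of the members was 10.5% in the uninduced libraries and 5.8% in the induced ones. The former was the highest of the 10 groups. Mitochondrially encoded transcripts took 1.2 to 3.34% of counts without doxycycline and 1.74 to 2.22% with it. Their part in these values was not tested.

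The Prrx1 plasmid raised the same factor without a member called higher. Prrx1 was at 485, 644 and 651 CPM with control plasmid and at 14830, 14650 and 19510 CPM with its own. No member rose, 2 fell, and 1.93% of 13108 tested genes were called higher and 1.05% lower. Nsdhl was at 265, 261 and 249.5 CPM in controls and at 218, 207 and 197 CPM with Prrx1 (-0.32 ± 0.059, edgeR adjusted p = 0.0126). Msmo1 was at 410, 419 and 415 CPM in controls and at 357, 346 and 364 CPM with Prrx1 (-0.22 ± 0.0536, edgeR adjusted p = 0.0457). Both genes had tight groups that did not overlap. Pmvk had the largest change not called, at 50.8, 40.97 and 45.6 CPM in controls and 55.98, 56.1 and 48.2 CPM with Prrx1, with overlap (0.22 ± 0.0905, edgeR adjusted p = 0.222). The unadjusted p was under 0.05 for 1 member above control and 7 below, and DESeq2 called 0 higher and 3 lower. Again the share of all genes under either rule was not counted.

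The Snai1 plasmid left no member past the threshold. Snai1, a repressor of epithelial genes, was at 94.9, 89.3 and 91.8 CPM in controls and at 11120, 10820 and 12030 CPM with its plasmid. Of all genes, 1.13% were called higher and 0.488% lower. The unadjusted p was under 0.05 for 1 member above control and 3 below, and the share of all genes at that p was not counted. DESeq2 called 0 higher and 3 lower (Idi1, Msmo1 and Nsdhl), against 1.69% of genes called lower by that tool. Nsdhl had the largest change, at 223, 217 and 213 CPM with Snai1 against the controls given above, and its groups were apart (-0.25 ± 0.059, edgeR adjusted p = 0.0523). Prrx1 and Snai1 were set against the same control libraries, so their values are not independent.

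One of those shared control libraries moved these counts by several times. Control replicate 1 held Hmgcs1 at 329 CPM, against 456 and 453 CPM in the other control libraries, Hsd17b7 at 112 against 173 and 164, and Npc2 at 312 against 254 and 244. It was the highest of the 3 control libraries for 14 members and the lowest for 11. Without it, the Prrx1 comparison called 3 members higher (Pmvk, Tm7sf2 and Npc2) and 9 lower (Hmgcs1, Idi1, Cyp51, Msmo1, Nsdhl, Hsd17b7, Sc5d, Scarb1 and Soat1), against 11% and 8.72% of genes. The Snai1 comparison then called the same 3 higher and 8 lower, all of those but Scarb1, against 12.4% and 10.4% of genes. Their log2 fold changes stayed between -0.30 and 0.32. Leaving out Prrx1 replicate 2 or Prrx1 replicate 3 took the 2 Prrx1 calls to 0, and leaving out Prrx1 replicate 1, control replicate 2 or control replicate 3 took them to 1. A fit of all 30 libraries called 0 members in either comparison. Mitochondrially encoded transcripts were at 1.09 to 1.5% with Prrx1 and 1.07 to 1.36% with Snai1, against 2.05 to 2.48% in controls, and their part in these values was not tested.

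Neither Egr1 nor Jun, immediate early factors, moved a member past the threshold. Egr1 was at 189, 156 and 202 CPM in controls and at 1977, 1724 and 1495 CPM with its plasmid. Few genes of any kind were called there (0.2% higher, 0.124% lower). Of the 27 members, 24 had a positive log2 fold change with a median of 0.14, against -0.01 over all genes. The unadjusted p was under 0.05 for 3 members above control and 0 below, and DESeq2 called 0. In limma on TPM, 7 members were called higher (Acat2, Fdft1, Sqle, Cyp51, Sc5d, Dhcr7 and Npc2), but on that scale 9.28% of genes were called higher and the median of all genes stood at 0.15. The members' own median on that scale was 0.27.

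Lss had the largest change with Egr1, at 329, 288 and 253 CPM in controls and 381, 359 and 290.5 CPM with the plasmid. The third Egr1 library fell inside the control range (0.24 ± 0.114, edgeR adjusted p = 0.511). That library, the one with Krt18, was the lowest of its group for 25 of 27 members, with a median of -0.24 on the log2 scale against the other Egr1 libraries. Egr1 replicate 1 was the highest for 21. The shared controls had a like order, with replicate 3 the lowest for 21 members (median -0.15) and replicate 1 the highest for 20. With Jun the order differed, replicate 1 being the lowest for 17 and replicate 2 the highest for 20. With each library left out in turn no member was called, and the number above control at an unadjusted p under 0.05 ran from 0 to 19. It was 19 without Egr1 replicate 3, 10 without control replicate 1, and 0 without any 1 of the other libraries. The share of all genes at an unadjusted p was not counted in any of these fits, so these counts cannot set the members apart.

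Jun was at 208, 190.0 and 198 CPM in controls and at 3854, 4734 and 4650 CPM with its plasmid. No member was called, against 0.448% of all genes called higher and 0.517% lower, and the unadjusted p was under 0.05 for 6 above control and 1 below. All 19 synthesis enzymes had a positive log2 fold change, with a median of 0.16. DESeq2 called 1 member higher (Cyp51), against 1.94% of genes. In limma on TPM 16 were called higher, against 17.4% of genes, with the median of all genes at 0.14 and that of the members at 0.30. Hsd17b7 had the largest change, at 118, 108 and 96.9 CPM in controls and 126, 131 and 125 CPM with Jun (0.24 ± 0.0865, edgeR adjusted p = 0.237), with the groups apart. With each library left out no member was called, and 0 to 12 were above control at an unadjusted p under 0.05. The number was 12 without control replicate 1, 0 without control replicate 3 and 1 to 4 without any 1 of the others. The share of all genes at that p was not counted with Jun, so these counts cannot set the members apart. The added reporter sequences GFP and mScarlet took 3.104 to 3.936% of counts in these controls and 0.221 to 0.359% with Egr1 or Jun, and their part in the values was not tested. Egr1 and Jun share their controls, so the likeness of their values is not independent.

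**Figure D5:**
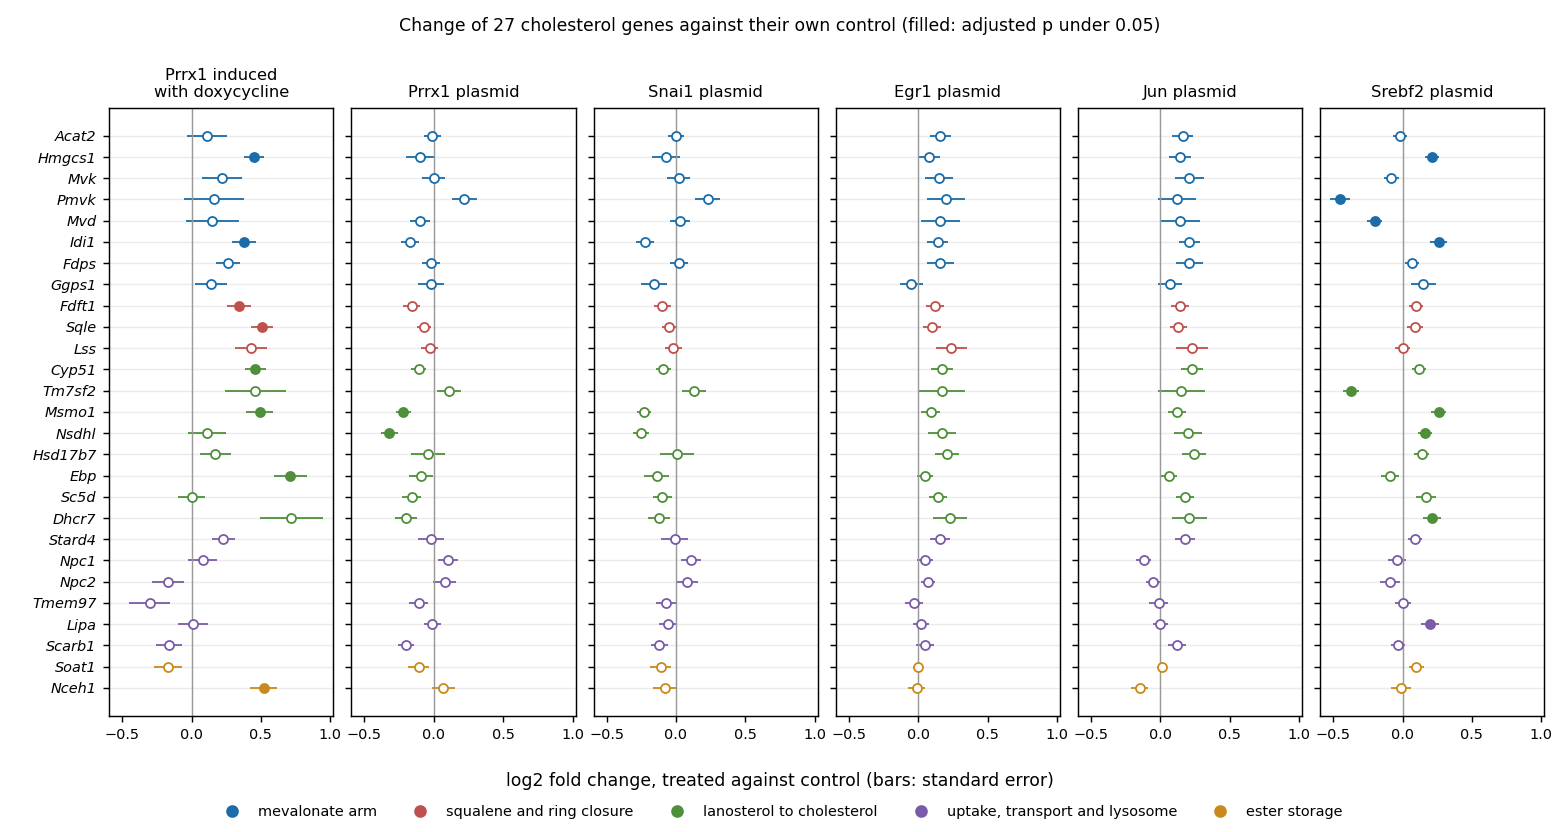
Log2 fold change against its own control, with SE, for the 27 members in the 6 comparisons, filled where the edgeR adjusted p was under 0.05. Filled points number 8 with doxycycline, 2 with the Prrx1 plasmid, 0 with Snai1, Egr1 and Jun, and 9 with Srebf2.

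Differences between effects were tested in 1 fit over all libraries, in which factor and experiment cannot be told apart. The effect of induced Prrx1 exceeded that of the Prrx1 plasmid for 10 members, where 11.8% of 16067 genes differed in either direction. They were Hmgcs1 (0.52 ± 0.123, edgeR adjusted p = 0.00453), Idi1 (0.52), Fdft1 (0.47), Sqle (0.55 ± 0.0957, edgeR adjusted p = 0.000194), Lss (0.43), Cyp51 (0.55), Msmo1 (0.68 ± 0.109, edgeR adjusted p = 6.87e-05), Ebp (0.76), Dhcr7 (0.87 ± 0.199, edgeR adjusted p = 0.00338) and Nceh1 (0.41). No member differed in the other direction. In Msmo1 the single effects were 0.49 with doxycycline and -0.22 with the plasmid. All 10 but Lss and Nceh1 stayed called with any library omitted.

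The Srebf2 effect was lower than that of induced Prrx1 for 6 members, where 9.5% of genes differed. They were Sqle (-0.39), Lss (-0.40), Cyp51 (-0.31), Tm7sf2 (-0.82), Ebp (-0.76, edgeR adjusted p = 9.2e-05) and Nceh1 (-0.49). The count fell to 3 without Srebf2 replicate 2. Of the 12 fits with a library left out, Lss was kept in 1, Cyp51 in 2, Tm7sf2 in 9, and Sqle, Ebp and Nceh1 in all. With the GC correction Lss was not called here (edgeR adjusted p = 0.0874). Hmgcs1 was then called lower, and Tmem97 and Soat1 higher. For Soat1 the correction used the GC content of its 509-base model. Against the Prrx1 plasmid, the Srebf2 effect was higher for Idi1 (0.44), Msmo1 (0.48) and Nsdhl (0.48) and lower for Pmvk (-0.67), where 8.59% of genes differed. Against Snai1 the same 4 members differed, at 0.48, 0.48, 0.40 and -0.69, where 9.82% of genes did. Both sets share their controls. Spearman's rho of these differences with GC content over the 27 members was -0.58 against Prrx1 and -0.70 against Snai1. With the GC correction Msmo1 passed in both (edgeR adjusted p = 0.0182 and 0.0418) and Pmvk against Prrx1 alone (0.0375 and 0.0625). Idi1 (0.0554 and 0.0847) and Nsdhl (0.0626 and 0.24) passed in neither. Scarb1, not called without the correction, passed in both (0.0118 and 0.0497). Without control replicate 1 of the Prrx1 and Snai1 experiment, the counts rose to 10 against Prrx1 and 9 against Snai1. Without Prrx1 replicate 3 or Srebf2 replicate 3 the count against Prrx1 was 2. Shares of all genes are not given for these fits with a library left out. In the single Prrx1 and Snai1 comparisons the share called also rose without control replicate 1, as given above. Against Egr1 and against Jun no member was called, where 0.28% and 0.0934% of genes were. Member differences ran from -0.65 to 0.21 against Egr1 and from -0.57 to 0.19 against Jun. The lack of calls therefore does not show that the effects were alike. The unadjusted p was under 0.05 for 3 and 4 members there, all lower with Srebf2, and DESeq2 called 1 and 0. The share of all genes at that p was not counted. Without Egr1 replicate 3, 1 member differed from Egr1.

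The genes that control the pathway were counted from a list of 7. Of these (Srebf1, Srebf2, Scap, Insig1, Insig2, Mbtps1 and Mbtps2), doxycycline raised 1, against 3.46% of all genes, Insig1, which retains the Scap complex in the endoplasmic reticulum (0.47 ± 0.093, edgeR adjusted p = 0.011). The Srebf2 plasmid raised 2, against 8.4% of all genes, which were the delivered Srebf2 itself and Mbtps2, a protease that releases the factor (0.24 ± 0.0585, edgeR adjusted p = 0.01), the latter at 0.10 with the GC correction and an edgeR adjusted p of 0.337. Of the words of Mbtps2, 68.7% are unique to it. Insig1 stood at 0.02 there. The other plasmids raised or lowered none of the 7 by this test, with unadjusted p under 0.05 for 0 of 7 in each.

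Fatty acid synthesis and desaturation genes, which answer to the related factor Srebf1 as well, were counted from a list of 12. Doxycycline raised 2 of 12, where 3.46% of all genes were called higher, the elongases Elovl5 (0.43) and Elovl6 (0.39). Srebf2 raised 4, where 8.4% of all genes were called higher, Elovl5 (0.32 ± 0.0545, edgeR adjusted p = 0.000918), Acsl3, an acyl-CoA ligase (0.26), Elovl6 (0.22) and Scd1, a desaturase (0.17), of which Elovl5 alone passed with the GC correction. The Prrx1 plasmid lowered 1, the desaturase Fads1 (-0.21), where 1.05% of all genes were called lower. With Snai1 edgeR called none of the 12, with 0 above and 2 below control at an unadjusted p under 0.05. Egr1 and Jun each raised 1, Acaca, the acetyl-CoA carboxylase (0.28 and 0.24, edgeR adjusted p = 0.0106 and 0.0173), where 0.2% and 0.448% of all genes were called higher. At an unadjusted p under 0.05, 6 of 12 were above control with Egr1 and 8 of 12 with Jun, and 0 were below in either. With Jun all 12 had a positive log2 fold change, and the groups were apart for 9. The shares of all genes at an unadjusted p or with groups apart were not counted. These counts therefore cannot set the list apart from other genes. Acaca, with 66.5% unique words, was at 176 ± 6.31 CPM in their shared controls, 213 ± 6.35 CPM with Egr1 and 209 ± 3.8 CPM with Jun (SD, n = 3).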

How the data were processed

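Bulk RNA from 30 libraries was quantified by the authors with kallisto 0.43.0 on build mm10, per the submitters' processing notes, and deposited as estimated counts and TPM per transcript. The annotation release, strand and read layout are not given in the sources used here. Of 118491 targets per file, 116816 matched GENCODE M21 by versioned name. Another 1673 did not (0.605 to 0.694% of counts) and were not used, and 2 were GFP and mScarlet. Deposited estimated counts were summed over 36047 genes and rounded to whole numbers.

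Groups follow the labels. Genes were tested with edgeR 4.0.16 in R 4.3.3 (quasi-likelihood, TMM scaling, filterByExpr with minimum count 10 and total 15), two-sided, and called at a Benjamini-Hochberg adjusted p under 0.05 over all genes tested. Groups that share controls were fitted together, without a replicate term. Shares of all genes were counted where one is printed, and not at an unadjusted p or for groups that did not overlap. CPM used TMM scaling over all libraries. Fold changes carry edgeR's default prior count. Tests were also run on simulated counts with the same dispersion for every gene. Those counts held no outlying library and no GC trend, so that check covers neither. Alternatives were RLE scaling, no filter, a stricter filter (5 CPM in 3 libraries), a replicate block, all 30 libraries in 1 fit, DESeq2 1.42.0, limma 3.58.1 on log2(TPM + 1) for genes with mean TPM of at least 1, each library left out, and a GC correction in 20 bins chosen after seeing the data. Depth of 7996355 to 37068611 counts sets the counting precision. Replicates differed by more than counting noise (chi-square per degree of freedom 3.41 to 38.7).

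Members and lists were chosen with earlier results of these data known. All 27 members are named. Library values are given for up to 8 called members with the largest change in the Srebf2 comparison, up to 4 elsewhere, and the largest uncalled one. Genes with under 90% of 31-base words unique to them are uncertain, and their share is printed once. Gene positions are from GENCODE M21 on mm10.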

Additional observations from a re-analysis of the deposited data

Results flagged for a closer look

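Each of 10 members had an effect of doxycycline-induced Prrx1 that differed from the effect of the Prrx1 plasmid, by an edgeR test of the difference between the effects on the log2 scale. The differences were 0.52 for Hmgcs1, 0.52 for Idi1, 0.47 for Fdft1, 0.55 for Sqle, 0.43 for Lss, 0.55 for Cyp51, 0.68 for Msmo1, 0.76 for Ebp, 0.87 for Dhcr7 and 0.41 for Nceh1, all higher with doxycycline. Delivery, drug, factor level and experiment differ together between these sets of libraries and cannot be told apart.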

How the results depend on the processing

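With all 30 libraries in 1 fit, the Srebf2 comparison called 0 members higher and 1 lower, and the Prrx1 plasmid 0 lower. Doxycycline called 10 higher and 1 lower (Tmem97) in that fit. With limma on TPM, doxycycline called 2 higher, Egr1 7, Jun 16, and Snai1 2 lower. DESeq2 called 3 lower with Snai1, 1 higher with Jun and 1 for Srebf2 minus Egr1. For Snai1, RLE scaling, no filter and the stricter filter each called 2 lower, and the GC correction 1. The GC correction called 2 higher with Srebf2, and 2 for Srebf2 minus Snai1. Without a filter, Srebf2 minus doxycycline called 3.

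Leaving out each library gave 4 to 9 higher with doxycycline, 0 to 3 higher and 0 to 9 lower with the Prrx1 plasmid, 0 to 3 higher and 0 to 8 lower with Snai1, and 2 to 6 higher with Srebf2 (2 to 4 lower). For Srebf2 minus doxycycline it gave 3 to 8, minus Prrx1 2 to 10, minus Snai1 3 to 9, minus Egr1 0 to 1, and for doxycycline minus Prrx1 8 to 13. Where a group was left with 2 libraries, the spread was pooled over groups. No called member reversed under any of these settings. Except for fits with fewer libraries, the cause of these shifts was not tested.

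Over all genes that passed the filter, replicate numbers did not pair the libraries. Correlations of same-numbered deviations were -0.149 to 0.0423, and not every library correlated best with its own number. For the members, Egr1 libraries and their controls had a like order at replicates 1 and 3, as given above. With a replicate block, 1 member was lower with the Prrx1 plasmid and 1 with Snai1. The block called 0 with Egr1 and 0 with Jun. Members above control at an unadjusted p under 0.05 then numbered 9 with Egr1 and 15 with Jun, against 3 and 6 without it. The share of all genes at that p was not counted, with or without the block. The block gave 8 higher with doxycycline, and 7 higher and 3 lower with Srebf2.

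All 27 members passed the filter in every comparison, and with 3 libraries a group, changes near the replicate spread could not be resolved.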
